A study of Mus musculus with 9 samples.

Results

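The immediate early genes Fos, Fosb, Jun, Junb, Egr1, Arc, Npas4, Ier2, Nr4a1 and Dusp1 were followed in sorted neurons of the developing mouse ventral midbrain. They were taken by symbol from tables of exonic, intronic and summed counts that list 32695 genes, and all 10 were found. Their levels were read in 2035 of 3455 wells, which had 2000 genes or more, no more than 50000 counts, and a mitochondrial share below 15%. All mice carried VGAT-Cre, which drives Cre in cells that make the vesicular GABA transporter, the Cre-dependent tdTomato allele Ai14, and Pitx3-GFP, which marks the midbrain dopamine system. Cells with tdTomato were sorted onto 4 plates at embryonic stage E16 and 3 plates at birth (P0), called VGAT plates here. Cells with tdTomato and GFP were sorted onto 1 plate at each stage (VGAT+Pitx3 plates). The labels name no stimulus for any group. Once Ai14 has recombined the reporter stays on, so the sort can also hold cells that used the transporter gene only in the past. Each plate had up to 384 wells with 1 sorted cell each. The labels do not tie plates to single animals, so the p-values measure the spread between plates.

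Immediate early genes are switched on within minutes by synaptic activity, growth factors or stress, from promoters that are already occupied by factors such as SRF and CREB and need no newly made protein. Their mRNAs are short-lived, and in the brain Fos, Arc, Egr1 and Npas4 are widely used to mark neurons that were recently active. Several of them also rise when tissue is cut and digested into single cells.

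The column names of the tables carry 2 plate labels, which give different stages for 4 of the 7 VGAT plates (E16 replicates 3 and 4, P0 replicates 1 and 3). The label that matches the sample titles was used, and calls that end with the other label are named beside the result. The kept wells per plate numbered 44 to 305, with 44 on VGAT P0 replicate 1, and their summed counts 1434306 to 5403472. None of the 3455 well names occurred more than once. The summed level of the neuronal markers Tubb3, Stmn2, Snap25, Elavl3 and Map2 was 5693 to 6920 CPM (counts scaled to library totals of 1000000) on the 9 plates. Slc32a1, Gad1 and Gad2, which define GABA neurons, summed to 1571 to 2036 CPM on the VGAT plates and to 1172 and 1337 CPM on the VGAT+Pitx3 plates. The 7 dopamine neuron markers summed to 72.0 to 118 CPM on the VGAT plates and to 5273 and 4197 CPM on the VGAT+Pitx3 plates. Glial markers were not absent: 6 astroglial markers summed to between 4.93 and 11.6 CPM on 6 of the VGAT plates, to 374 CPM on VGAT P0 replicate 2, and to 155 and 142 CPM on the VGAT+Pitx3 plates. In plate sums, fewer cells of a type and less RNA per cell cannot be told apart.

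The promoters of Fos, Fosb, Junb and Jun are shown because these genes encode the subunits of AP-1 among the 10. The windows are the 250 bases before the RefSeq start (GRCm38.p6), read 5′ to 3′ on the gene's strand, and capitals mark TGACG, the core of the cAMP response element, to which CREB binds, on either strand, so that the Jun window has none. They lie at chr12:85473640-85473889 (Fos, plus strand), chr7:19310046-19310295 (Fosb, minus strand), chr8:84978749-84978998 (Junb, minus strand) and chr4:95052223-95052472 (Jun, minus strand).
Fos: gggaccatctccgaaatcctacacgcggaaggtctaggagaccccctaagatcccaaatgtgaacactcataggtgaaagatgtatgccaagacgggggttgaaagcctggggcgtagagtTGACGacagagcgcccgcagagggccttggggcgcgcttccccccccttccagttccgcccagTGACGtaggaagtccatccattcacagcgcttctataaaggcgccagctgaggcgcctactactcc
Fosb: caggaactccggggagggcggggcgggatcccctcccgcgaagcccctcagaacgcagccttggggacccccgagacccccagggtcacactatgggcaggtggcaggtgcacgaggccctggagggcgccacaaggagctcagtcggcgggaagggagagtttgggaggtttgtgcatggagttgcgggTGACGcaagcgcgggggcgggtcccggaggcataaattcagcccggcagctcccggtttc
Junb: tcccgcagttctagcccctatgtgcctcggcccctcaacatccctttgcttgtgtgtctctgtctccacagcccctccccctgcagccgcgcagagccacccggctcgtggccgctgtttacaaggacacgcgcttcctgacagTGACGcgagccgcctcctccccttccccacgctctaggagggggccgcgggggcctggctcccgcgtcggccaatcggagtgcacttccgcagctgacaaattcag
Jun: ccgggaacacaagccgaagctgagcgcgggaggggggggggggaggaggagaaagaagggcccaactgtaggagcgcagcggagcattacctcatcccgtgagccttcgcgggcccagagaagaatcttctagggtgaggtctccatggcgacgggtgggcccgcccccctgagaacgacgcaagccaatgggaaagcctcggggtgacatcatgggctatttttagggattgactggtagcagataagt
The TGACG motif stood in 6 of the 7 windows at hand (Fos, Fosb, Junb, Npas4, Nr4a1 and Dusp1, not Jun) and in 17.9% of 27025 promoter windows of the same length. Its palindrome TGACGTCA, which holds TGACG on both strands, stood in the Dusp1 window and in 1.62% of all windows. The CArG box, the SRF motif, was in none of the 7 windows and in 1.4% of all, and the AP-1 motif TGANTCA in none of the 7 and in 6.87% of all. The 9-letter EGR motif GCGNGGGCG was in the Fosb and Nr4a1 windows and in 4.65% of all. These are matches of letters in a short window and not measured sites. No window was at hand for Egr1, Arc and Ier2, and bases beyond the 250 were not searched.

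**Figure D1:**
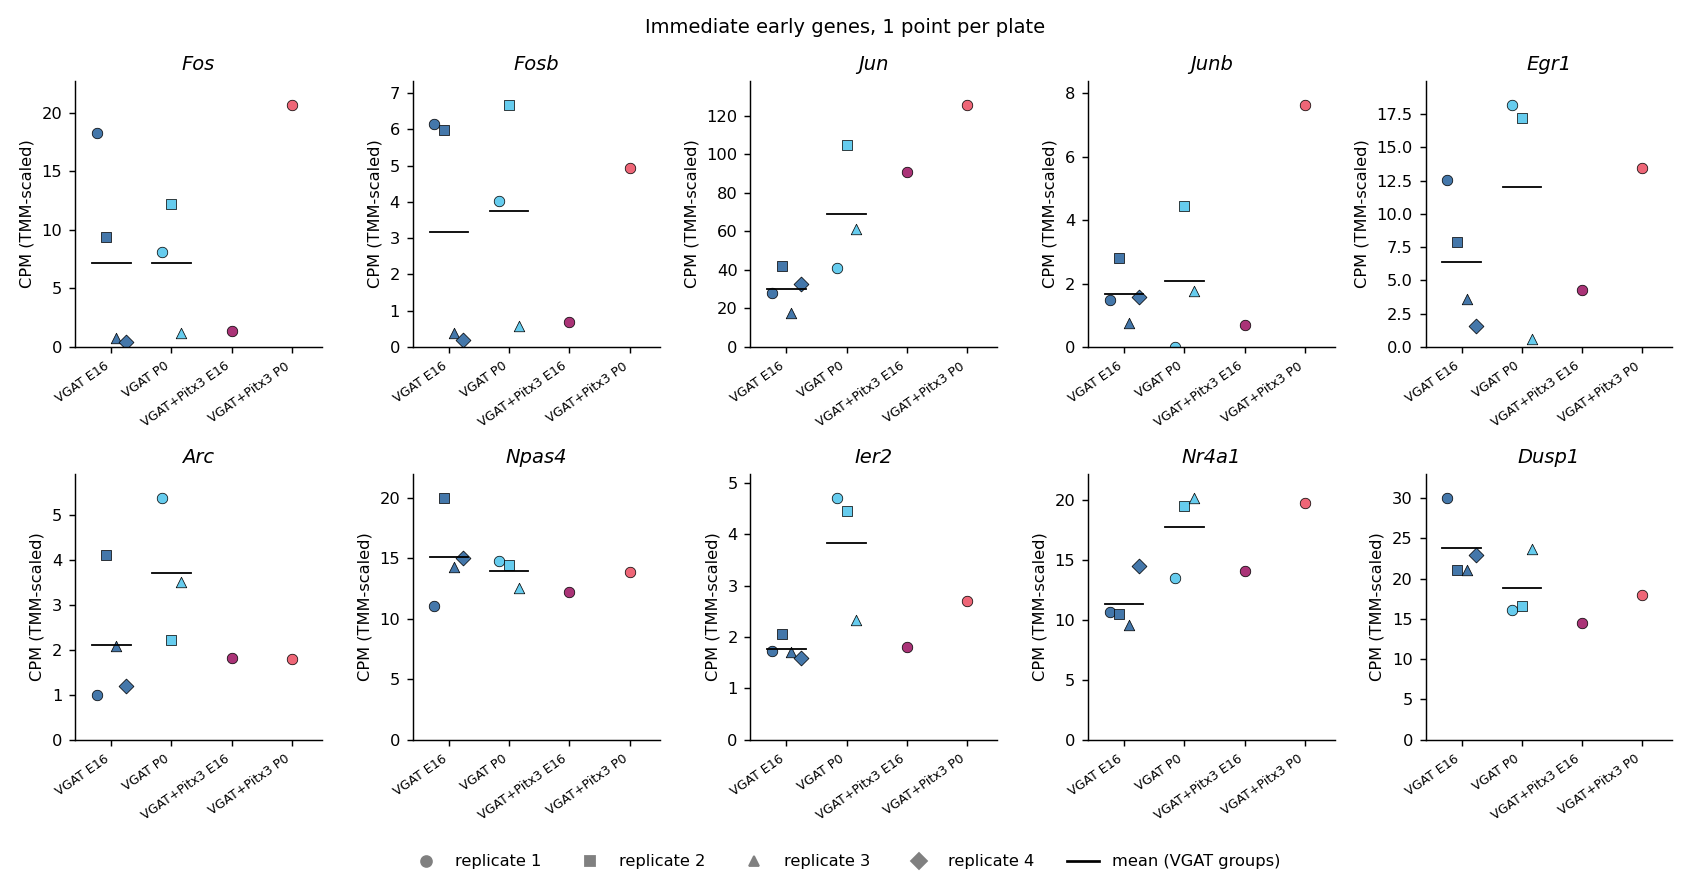
Level of each immediate early gene on each plate (y axis, TMM-scaled CPM from 0; x axis, sort and stage; marker shape, replicate number; black lines, means of the VGAT groups). Fos and Fosb split the plates of each VGAT group into high and low ones, Egr1 falls gradually over the VGAT E16 plates, Jun had higher means at P0 and in VGAT+Pitx3 with an overlap of 1 plate between the VGAT stages, and the highest plate was 1.81, 2.12 and 2.08 times the lowest for Npas4, Nr4a1 and Dusp1.

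Fos encodes a subunit of the AP-1 transcription factor and lies at chr12:85473890-85477273 on the plus strand, with 4 exons. On the VGAT E16 plates its level was 18.2, 9.35, 0.76 and 0.40 CPM (74, 50, 4 and 2 counts) in replicates 1 to 4. On the VGAT P0 plates it was 8.07, 12.2 and 1.17 CPM (12, 22 and 4 counts), and on the VGAT+Pitx3 plates 1.36 CPM at E16 and 20.6 CPM at P0 (6 and 46 counts). Plates of both stages and of both sorts were high, and others of the same groups were low, so the groups overlapped. VGAT plates averaged 7.19 ± 8.45 CPM (SD, n = 4) for E16 and 7.15 ± 5.58 CPM (SD, n = 3) for P0. The log2 difference was -0.11 with an SE of 0.99 (edgeR quasi-likelihood test, Benjamini-Hochberg adjusted p = 0.96).

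Fosb, a close relative that also pairs with Jun proteins, lies at chr7:19302696-19310051 on the minus strand. It stood at 6.16, 5.99, 0.38 and 0.20 CPM on the VGAT E16 plates, at 4.04, 6.67 and 0.58 CPM on the VGAT P0 plates, and at 0.68 and 4.93 CPM on the VGAT+Pitx3 plates at E16 and P0. Egr1, a zinc finger transcription factor, stood at 12.6, 7.86, 3.61 and 1.59 CPM, at 18.2, 17.2 and 0.58 CPM, and at 4.30 and 13.5 CPM in the same order. The same 5 plates held the highest levels of Fos, of Fosb and of Egr1: replicates 1 and 2 of VGAT E16 and of VGAT P0, and the P0 plate of the VGAT+Pitx3 sort, so that at both VGAT stages the plates numbered 1 and 2 were the high ones. Between the fifth and the sixth plate Fos dropped from 8.07 to 1.36 CPM, Fosb from 4.04 to 0.68 CPM and Egr1 from 7.86 to 4.30 CPM. The high plates included both stages and both sorts, and had medians of 7587 to 34751 counts per kept well and the low ones 14562 to 18976. Neither gene passed the stage test, with log2 differences of 0.09 (SE 0.98, edgeR adjusted p = 0.97) for Fosb and 0.78 (SE 0.77, edgeR adjusted p = 0.57) for Egr1.

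The spread between plates of the same stage was measured by the dispersion that edgeR fits to each gene. In the stage fit it was 0.690 for Fos, 0.621 for Fosb and 0.455 for Egr1, which placed them at percentiles 99.9, 99.9 and 99.7 of the 13639 genes tested. Among genes within 0.5 log2 CPM of their own level they stood at percentiles 99.7, 99.5 and 99.5. Npas4, Nr4a1 and Dusp1 stood at percentiles 65.9, 60.9 and 56.0 of all genes tested, so the immediate early genes did not share 1 degree of spread. Arc stood at percentile 97.2 and Jun at percentile 90.4 of all genes. When each VGAT plate was left out in turn, Fos stayed between percentiles 99.7 and 99.99, Fosb between 99.7 and 99.9 and Egr1 between 98.3 and 99.9. With the replicate number as a block in the fit, Fos, Fosb and Egr1 stood lower (given in the last section). On the 3 VGAT plates whose 2 labels give the same stage (E16 replicates 1 and 2, P0 replicate 2), which were all high, Fos, Fosb and Egr1 stood at percentiles 80.8, 73.3 and 74.0, from the spread of the 2 E16 plates alone.

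**Figure D2:**
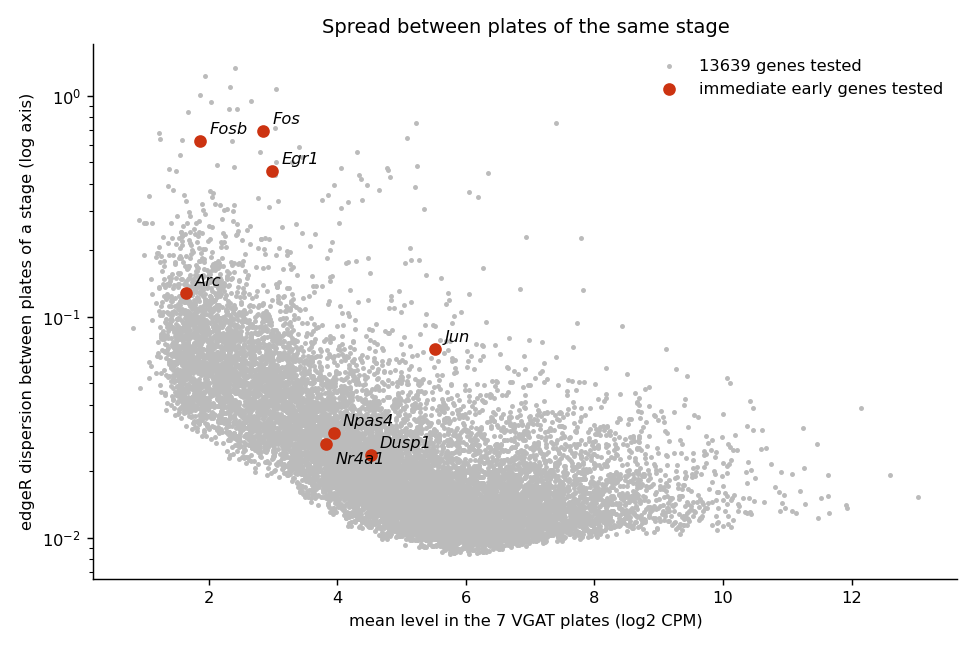
Dispersion between plates of the same stage (y axis, log axis) against mean level in the 7 VGAT plates (x axis, log2 CPM) for the 13639 genes tested (grey) and the 8 immediate early genes among them (red). Fos, Fosb and Egr1 stand above nearly all genes of their level, Npas4, Nr4a1 and Dusp1 within the bulk.

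Jun, the main partner of Fos in AP-1, is a gene of 1 exon at chr4:95049034-95052222 on the minus strand. Its model overlaps the antisense gene Junos, and the strand of counting is not given in the sources used here. It had the most counts of the 10, at 28.1, 42.3, 17.7 and 32.7 CPM on the VGAT E16 plates and 41.0, 105 and 61.3 CPM on the VGAT P0 plates. The VGAT+Pitx3 plates held 91.1 CPM at E16 and 126 CPM at P0. The lowest P0 plate fell just under the highest E16 plate, so the VGAT stages overlapped by 1 plate, while the VGAT+Pitx3 plate was above every VGAT plate of its stage. Jun rose from 30.2 ± 10.2 CPM (SD, n = 4) at E16 to 69.1 ± 32.7 CPM (SD, n = 3) at P0 in the VGAT plates. The log2 difference was 1.21 (SE 0.30, edgeR adjusted p = 0.0397). Jun was also higher in VGAT+Pitx3 than in VGAT plates, by 1.26 on the log2 scale with stage in the model (SE 0.28, edgeR adjusted p = 0.00939).

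Of the 8 immediate early genes with enough counts for the stage test, 1 passed it (Jun), beside 4.58% of all 13639 genes. Of the 10 tested between sorts, 1 passed (Jun), beside 8.93% of 14624 genes. The median log2 difference of the genes tested was 0.39 for stage, with 0.02 over all genes, and -0.14 for sort, with -0.00 over all genes. Leaving out VGAT E16 replicate 1, 3 or 4 or VGAT P0 replicate 2 or 3 ended the stage call of Jun (adjusted p between 0.0843 and 0.155), and without VGAT P0 replicate 2 the difference was 0.80. Leaving out the VGAT+Pitx3 E16 plate ended the call between sorts (log2 difference 0.85, adjusted p = 0.367), with 1 plate left in that sort. With stage taken from the other plate label, Jun differed by 0.16 between stages (SE 0.49, adjusted p = 0.98), and 1 of 13639 genes passed that test with 854 at an unadjusted p under 0.05. With that label the difference between sorts was 1.23 (SE 0.44, adjusted p = 0.158).

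**Figure D3:**
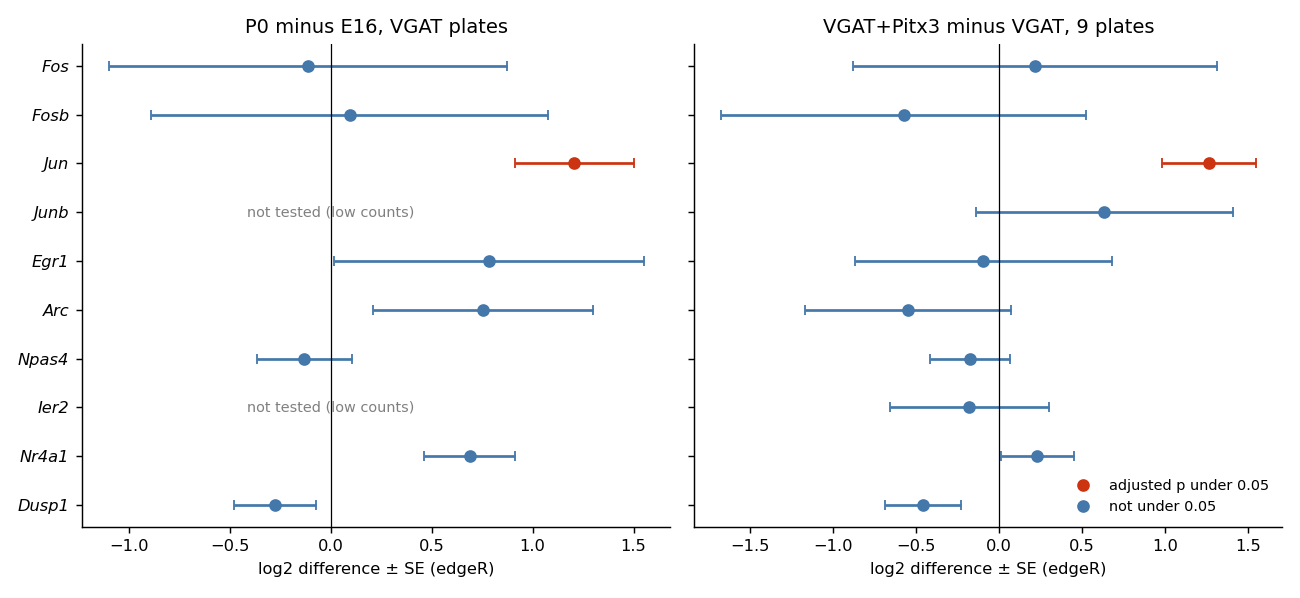
Log2 difference with SE from edgeR for each immediate early gene (y axis) between stages in the 7 VGAT plates (left) and between sorts over 9 plates with stage in the model (right); red marks an adjusted p under 0.05. Jun is the one gene in red, at 1.21 and 1.26, and the SE of Fos and Fosb is near 1 in both.

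Junb, an AP-1 subunit that can dampen Jun, lies at chr8:84974484-84978718 on the minus strand, where its model overlaps the end of Prdx2. It was rare, at 0.76 to 2.81 CPM on the VGAT E16 plates, 0 to 4.44 CPM on the VGAT P0 plates and 0.68 and 7.62 CPM on the VGAT+Pitx3 plates at E16 and P0. Its lowest plate, VGAT P0 replicate 1, had 0 counts, where 3 counts would be 2.02 CPM. It was not tested for stage because of its low counts, and between sorts it differed by 0.63 (SE 0.78, edgeR adjusted p = 0.778). When single plates were left out, the difference between sorts ran from -1.26 to 1.83.

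Npas4, a transcription factor of neurons that answers to calcium entry, lies at chr19:4984355-4990316 on the minus strand. Its level was 11.1, 20.0, 14.3 and 15.1 CPM on the VGAT E16 plates, 14.8, 14.4 and 12.6 CPM on the VGAT P0 plates and 12.2 and 13.9 CPM on the VGAT+Pitx3 plates. The highest plate was 1.81 times the lowest, the narrowest range of the 10. Between stages it differed by -0.13 (SE 0.24, edgeR adjusted p = 0.777) and between sorts by -0.18 (SE 0.24, edgeR adjusted p = 0.803).

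Nr4a1 encodes the orphan nuclear receptor Nur77 and lies at chr15:101254269-101274795 on the plus strand. It was at 10.6, 10.5, 9.51 and 14.5 CPM on the VGAT E16 plates, 13.5, 19.4 and 20.1 CPM on the VGAT P0 plates and 14.0 and 19.7 CPM on the VGAT+Pitx3 plates. P0 plates were high and E16 plates low with an overlap of 1 plate each, and the log2 difference of 0.69 (SE 0.23) had an unadjusted p of 0.00954 but did not pass adjustment (edgeR adjusted p = 0.0936). Nr4a1 was the one gene of the 10 with more than 4 intronic counts. Of its counts 146 of 452 were intronic, 32.3% (95% exact interval 28.0 to 36.8%), beside 26.0% over all genes. On single plates the intronic share ran from 20.0% to 40.0%, with intervals that overlapped. Jun and Ier2, which have 1 exon, had 0 intronic counts, and so did Fos, Egr1, Arc, Npas4 and Dusp1. Junb had 4 and Fosb 1. The intronic intervals cover counting error only.

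Arc encodes a cytoskeletal protein of dendrites that acts in synaptic plasticity, and Ier2 a small nuclear protein. Arc lies at chr15:74669083-74672570 and Ier2 at chr8:84661331-84662852, both on the minus strand. Arc stood between 0.99 and 5.38 CPM and Ier2 between 1.59 and 4.71 CPM over the 9 plates, with at most 22 counts of Arc and 11 of Ier2 on a plate. The highest plate for both was VGAT P0 replicate 1, where a single well gave 7 of the 8 Arc counts and 6 of the 7 Ier2 counts. That well also held 17 of the plate's 27 Egr1 counts and 4 of its 12 Fos counts. Dusp1, a phosphatase that shuts off the MAP kinases which induce these genes, lies at chr17:26505590-26562128 on the minus strand in a model that overlaps Ergic1. It stood at 30.1, 21.1, 21.1 and 23.0 CPM on the VGAT E16 plates, 16.1, 16.7 and 23.7 CPM on the VGAT P0 plates and 14.5 and 17.9 CPM on the VGAT+Pitx3 plates. Neither stage (log2 difference -0.28, SE 0.20, edgeR adjusted p = 0.434) nor sort (-0.45, SE 0.23, edgeR adjusted p = 0.33) passed the test for Dusp1.

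Whether the change with stage differed between the sorts was tested by an interaction over 9 plates, with 1 VGAT+Pitx3 plate per stage. In edgeR 0 of 15724 genes passed, 0.0%, with 998 at an unadjusted p under 0.05, and DESeq2 called 3 of the 7186 genes to which it gave an adjusted p. The largest interaction among the 10 was that of Fos, 4.02 on the log2 scale (SE 2.13, adjusted p = 0.802), which followed from 1.36 CPM on the VGAT+Pitx3 plate at E16 and 20.6 CPM on that at P0. Without the filter on low counts it was 4.01 and passed, as the single one of 461 alternative fits of the 9 genes other than Jun that did. With 1 VGAT+Pitx3 plate per stage the spread comes from the VGAT plates alone. Such a fit cannot tell a difference between sorts from one between single plates.

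Other genes of the same response were read as lists. For stage the share of all 13639 genes called was 4.58%, and the counts of these small lists are to be read beside it. Of 21 other immediate early genes, most of which encode transcription factors, 11 were tested and 1 was higher at P0. This was Ier3, a survival factor induced by stress, with 0.74, 2.06, 0.19 and 0.79 CPM at E16 and 2.69, 7.78 and 4.38 CPM at P0 (log2 difference 2.34, SE 0.60, edgeR adjusted p = 0.0449). Of 24 inducible effectors and feedback genes, 19 were tested and 1 rose. This was Vgf, a secreted neuropeptide precursor, at 46.8 to 84.7 CPM in the E16 and 122 to 311 CPM in the P0 VGAT plates (log2 difference 1.67, SE 0.28, edgeR adjusted p = 0.0126). Of 28 upstream factors, 26 were in the tables and 25 were tested and the kinase gene Map2k1 rose by 0.63 (SE 0.14, edgeR adjusted p = 0.0292). Of 33 heat shock and dissociation stress genes, 32 were in the tables and 24 were tested and 2 rose: the chaperone genes Hspa8, by 0.74 (SE 0.18, edgeR adjusted p = 0.0387), and Hspa1a, by 1.07 (SE 0.23, edgeR adjusted p = 0.03). Their median log2 differences were 0.13, 0.17, 0.06 and 0.06, beside 0.02 over all genes. None of the tested genes of the 4 lists was called lower. With the other plate label none of these 5 genes was called (log2 differences from -0.24 for Map2k1 to 0.43 for Vgf, edgeR adjusted p of at least 0.918). With single plates left out, the log2 differences ran from 0.57 to 0.74 for Map2k1 and from 0.53 to 0.93 for Hspa8. Those of Hspa1a ran from 0.92 to 1.16 and those of Ier3 from 1.93 to 3.08. Vgf passed whichever plate was left out (highest adjusted p 0.0437). The other calls were lost without single plates, with a highest edgeR adjusted p of 0.158 for Ier3 and 0.142 for Hspa8, both without VGAT P0 replicate 2, 0.1 for Hspa1a without the same plate, and 0.0975 for Map2k1 without VGAT E16 replicate 3. Leaving out VGAT E16 replicate 1 ended the calls of Hspa8, Ier3 and Map2k1, E16 replicate 3, E16 replicate 4 or P0 replicate 2 all 4, P0 replicate 1 those of Hspa8 and Map2k1, and P0 replicate 3 those of Hspa1a, Ier3 and Map2k1.

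Between sorts 8.93% of all 14624 genes were called. Of the 13 other immediate early genes tested 3 were higher in VGAT+Pitx3 plates, and every gene called higher or lower in this paragraph had an edgeR adjusted p of at most 0.0458. Nr4a2, which is also a marker of dopamine neurons, stood at 787 and 519 CPM there and at 28.0 to 88.4 CPM on the VGAT plates. Klf4 stood at 36.4 and 22.9 CPM against 0 to 3.77 CPM, and Btg2, an inhibitor of proliferation, at 10.6 and 14.8 CPM against 1.71 to 10.0 CPM. Of 22 effectors, Bdnf and Nrn1, which encode factors of neurite growth, were higher: Bdnf stood at 135 and 124 CPM against 9.91 to 27.6 CPM, and Nrn1 at 73.0 and 52.0 CPM against 0 to 3.55 CPM. Nptx2 and Rgs2 were lower, at 2.26 and 3.59 CPM against 5.32 to 36.1 CPM and at 63.3 and 46.2 CPM against 65.5 to 136 CPM. Of 26 upstream factors Elk3, Rps6ka3 and Map2k1 were higher and Mef2c and Rps6ka5 lower, and of 27 stress genes Rhob was higher. The median log2 differences of the 4 lists were 0.21, 0.07, 0.02 and 0.03, beside -0.00 over all genes. Bdnf, Klf4, Nr4a2, Nrn1 and Rps6ka3 passed whichever plate was left out and with the other plate label. With either VGAT+Pitx3 plate left out that sort has 1 plate, which is assumed to vary like the VGAT plates, and a lost call then need not go with a smaller difference. Without the VGAT+Pitx3 plate at E16 the other 8 calls were lost, with edgeR adjusted p from 0.0995 for Rgs2 and 0.101 for Elk3 through 0.195 for Mef2c, 0.248 for Nptx2, 0.27 for Btg2 and 0.327 for Rhob to 0.453 for Rps6ka5 and 0.526 for Map2k1. The log2 differences were then -0.94 for Rgs2, 2.76 for Elk3, -1.57 for Mef2c and -2.30 for Nptx2, in place of -0.91, 2.04, -1.56 and -2.09, and fell to 1.63 for Btg2, 0.43 for Rhob and 0.33 for Map2k1 from 1.99, 0.50 and 0.53, and for Rps6ka5 it was -0.55 in place of -0.68. Without that at P0 the calls of Elk3, Map2k1, Mef2c, Nptx2, Rhob and Rps6ka5 were lost (edgeR adjusted p 0.058 to 0.319). Leaving out single VGAT plates ended calls of Map2k1 (E16 replicates 1, 3 and 4, P0 replicate 3), Nptx2 (E16 replicates 1, 2 and 4), Rhob (E16 replicates 1 and 3) and Rps6ka5 (E16 replicates 1, 2 and 4, P0 replicates 1 and 2), at edgeR adjusted p of 0.0503 to 0.0748. With the other plate label the calls of Map2k1, Mef2c, Nptx2, Rhob and Rps6ka5 were lost (edgeR adjusted p 0.0533 to 0.245). Their log2 differences were then 0.56, -1.54, -2.09, 0.51 and -0.70, in place of 0.53, -1.56, -2.09, 0.50 and -0.68.

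Single wells held few of these transcripts. Over all kept wells 128 had a Fos count, 62 Fosb, 730 Jun, 51 Junb, 118 Egr1, 59 Arc, 367 Npas4, 61 Ier2, 346 Nr4a1 and 508 Dusp1. For shares, 1956 wells were thinned to 4000 counts each, and 79 shallower wells were left out. Fos was then found in 9 of 183 wells (4.92%, exact 95% interval 2.27 to 9.13%) on VGAT E16 replicate 1, in 6 of 228 (2.63%, 0.972 to 5.64%) on replicate 2, in 0 of 298 on replicate 3, where 3 wells would be 1.01%, and in 1 of 293 (0.341%) on replicate 4. It was found in 8 of 194 wells (4.12%, 1.80 to 7.96%) on VGAT P0 replicate 2, in 2 of 43 (4.65%, 0.568 to 15.8%) on P0 replicate 1 and in 0 of 169 on P0 replicate 3, where 3 wells would be 1.78%. It was found in 2 of 299 (0.669%) on the VGAT+Pitx3 plate at E16 and in 14 of 249 (5.62%, 3.11 to 9.25%) on that at P0. Jun was found in 4.36% to 11.0% of wells on the VGAT E16 plates and in 14.0%, 28.9% and 20.1% on the VGAT P0 plates. The VGAT+Pitx3 plates had Jun in 24.4% and 31.7% of wells. Without thinning, wells with Fos made up 18.9% and 1.32% on VGAT E16 replicates 1 and 3, and wells with Jun 17.5% to 37.7% on the VGAT E16 plates and 39.7% to 56.8% on the VGAT P0 plates. These intervals cover counting error only.

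Most thinned wells (1253 of 1956) held none of the 10 genes, 569 held 1, 110 held 2 and 24 held 3 or more. Among the 42 thinned wells with Fos, 11.9% also had Fosb, 16.7% Junb and 14.3% Egr1, and among the 1914 without Fos 0.888%, 0.366% and 2.25% did. Over the 4 plates with at least 5 Fos wells the difference was positive on 3 for each of these. Jun was found in 21.4% of wells with Fos and 17.0% of those without, and Arc in 0 of the 42. Pooled over plates, wells with and without Fos had medians of 14336 and 15657 counts, 4.83% and 4.84% mitochondrial counts and 3.60% and 3.69% spike-in counts. Within plates the medians went either way: they were 29349 and 21382 counts on VGAT E16 replicate 1, 20918 and 23801 on replicate 2, 7879 and 8148 on VGAT P0 replicate 2, and 8141 and 8370 on the VGAT+Pitx3 plate at P0. For glial markers, 8 of the 42 wells with Fos and 18 of the 1914 without had at least 2 astroglial markers, and 5 and 12 had at least 2 oligodendrocyte lineage markers. At least 2 markers of SNr-2 were found in 20 of the 42 wells with Fos (47.6%) and in 33.2% of those without. For SNr-1 it was 1 well (2.38%) against 11.5% (both lists of the substantia nigra pars reticulata). The midbrain reticular formation had 2 wells (4.76%) against 16.4%, and the hypothalamus 4 (9.52%) against 5.12%. Dopamine neurons had 14 wells (33.3%) against 26.2%, and GABA neurons of the ventral tegmental area 0 against 7.16%. The hindbrain list had 0 against 1.25% and the rostral interpeduncular list 0 against 0.731%. These shares pool plates that differ in Fos and in their share of each class. The part of these differences in the shared detection was not tested. Wells of 1 plate share a library, so these shares are descriptions.

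Some of the Fos lay in wells with glial RNA. Wells were clustered without the 10 genes and without the lists of other immediate early genes, effectors and stress genes, which gave 21 clusters. The smallest, of 18 wells, was astroglia-like: it was led by Fabp7, Slc1a3 and Apoe, and 5 of 6 astroglial markers were raised in it. Oligodendrocyte lineage markers were also raised, at 1037 CPM against 35.7 CPM in the other wells. Dopamine neuron markers stood at 2380 against 1050 CPM, but these sums pool plates. Of the 18 wells 4 and 6 lay on the VGAT+Pitx3 plates at E16 and P0, where dopamine neuron markers were high. Fos summed to 123 CPM in the 18 wells (27 counts in 11 of them, 95% Poisson interval 81.0 to 179) and to 5.83 CPM in the other 2017 wells (193 counts in 117 wells). Egr1 was at 109 CPM there and 6.19 CPM elsewhere, and Junb at 59.2 and 1.63 CPM, so that these 18 wells held 12.3% of all Fos, 10.5% of all Egr1 and 19.4% of all Junb counts. Nr4a1 was at 59.2 and 13.3 CPM, and Jun at 155 CPM (34 counts, 107 to 216) and 51.6 CPM. By plate, Jun was lower in these wells on VGAT P0 replicate 2 (48.1 against 107 CPM). It was higher in them on the VGAT+Pitx3 plates, at 167 against 85.9 CPM at E16 and 268 against 116 CPM at P0. The 1 such well of VGAT E16 replicate 4 had 0 Jun counts. Over all plates Fosb (4 counts) was at 18.2 CPM and Ier2 (5 counts) at 22.8 CPM in the 18 wells. Npas4 and Arc had 0 counts there, which allows up to 16.8 CPM and does not separate them from the 14.5 and 2.39 CPM of the other wells. The heat shock and dissociation stress list summed to 5365 CPM there and 3725 CPM elsewhere, and the median depth was 7448.5 and 14432 counts per well. The part of these in the result was not tested. The 18 wells also carried neuronal RNA, with 4482 CPM of the 5 neuronal markers against 6215 CPM elsewhere, and doublets were not called.

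The astroglia-like wells lay on few plates: 7 on VGAT P0 replicate 2, 6 and 4 on the VGAT+Pitx3 plates at P0 and E16, and 1 on VGAT E16 replicate 4. On VGAT P0 replicate 2 they held 12 of the 22 Fos counts, and without them Fos was at 5.77 CPM in place of 12.3 CPM (both on the plain CPM scale). On the VGAT+Pitx3 plate at E16 they held 4 of 6 Fos and 14 of 19 Egr1 counts. On the VGAT+Pitx3 plate at P0 they held 11 of 46 Fos and 8 of 17 Junb counts. VGAT E16 replicates 1 and 2, with 74 and 50 Fos counts, had no astroglia-like well. When the 47 wells with at least 2 markers of a glial, microglial or vascular list were left out, Fos differed by -0.67 (SE 1.02, edgeR adjusted p = 0.738) between stages and Jun by 1.23 (SE 0.31, edgeR adjusted p = 0.0419). Fos, Fosb and Egr1 then stood at percentiles 99.9, 99.9 and 99.7 of dispersion.

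**Figure D4:**
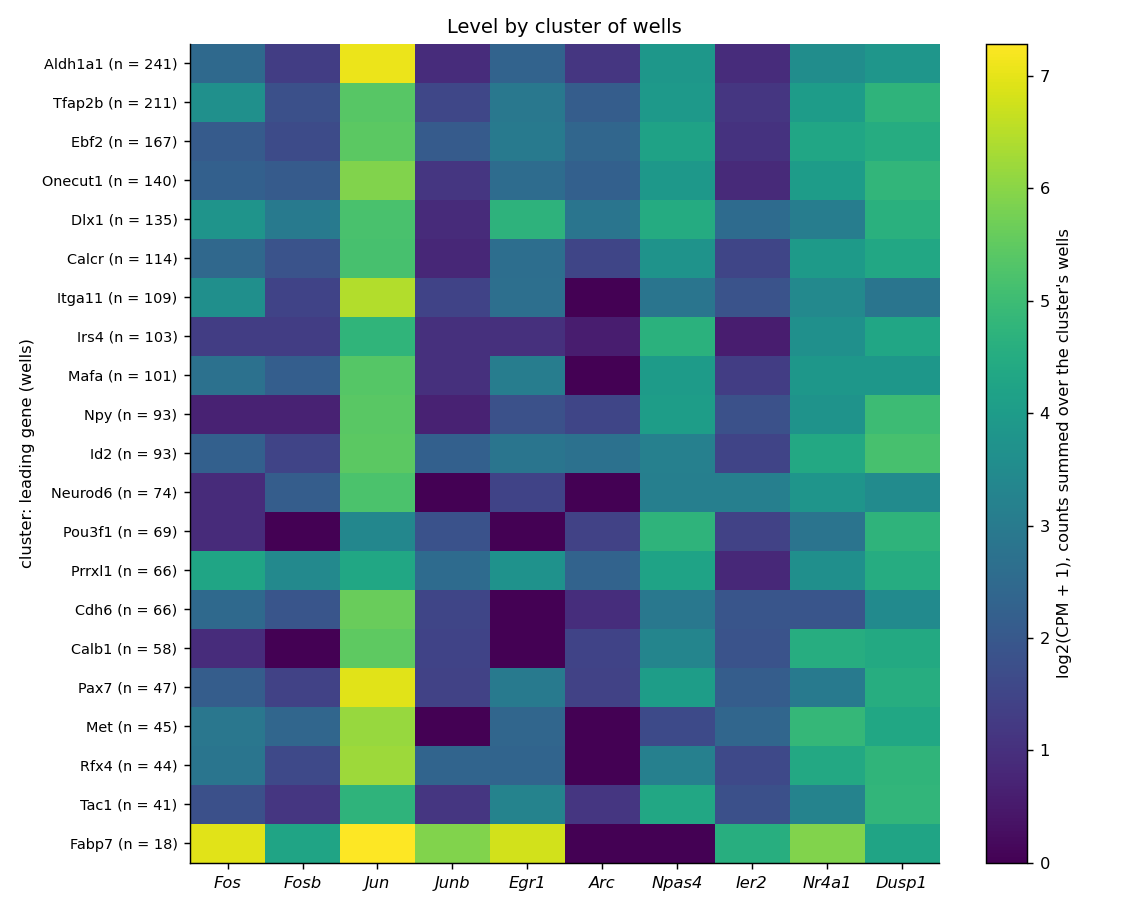
Level of each immediate early gene (x axis) in each of the 21 clusters of wells (y axis, named by their leading gene, with the number of wells), as log2(CPM + 1) of counts summed over the cluster. The bottom row, led by Fabp7, holds the highest Fos, Fosb, Jun, Junb, Egr1, Ier2 and Nr4a1 and 0 counts of Arc and Npas4, and Jun is next highest in the top row, led by Aldh1a1.

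Among the 20 clusters of 41 or more wells, Fos ranged from 0.62 CPM in the cluster led by Npy and Meis2 to 18.5 CPM in that led by Prrxl1 and Tcf7l2, with a median of 4.09 CPM. These sums pool plates that differ in Fos and in their share of each cluster. Of the 93 wells of the Npy cluster 25 and 42 lay on VGAT E16 replicates 3 and 4, where Fos was lowest. In the Prrxl1 cluster all 23 Fos counts came from VGAT E16 replicates 1 and 2 (63.3 and 57.5 CPM), with 0 on the other 5 plates it was on. Egr1 was highest, at 24.9 CPM, in the cluster led by Dlx1, which held 24.9% of its counts, and had 0 counts in 3 clusters, among them the SNr-1-like one led by Pou3f1. In the cluster led by Tfap2b, Zic1 and Lbx1, VGAT E16 replicate 1 had 38 Fos counts in 49 wells, replicate 2 had 4 in 38, replicate 3 had 1 in 24 and replicate 4 had 0 in 20. In the Dlx1 cluster VGAT P0 replicate 1 had 7 Fos and 24 Egr1 counts in 4 wells, of which 1 well gave 4 and 17, while replicates 2 and 3 had 0 Fos counts in 8 and 5 wells with 57327 and 31712 counts in all. Npas4 was highest, at 25.7 CPM, in the Pou3f1 cluster, of whose 69 wells 29 and 22 lay on VGAT E16 replicates 3 and 4. It was at 28.4 and 38.3 CPM on those plates and at 4.06 CPM in the 9 wells of VGAT E16 replicate 2.

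Jun was highest among these 20 clusters in the DA-like one led by Aldh1a1, Slc6a3 and Th, at 133 CPM, and lowest in the Pou3f1 cluster, at 9.43 CPM, with a median of 41.9 CPM over clusters. The DA-like cluster of 241 wells came from the VGAT+Pitx3 plates alone and held 25.1% of all Jun counts. On the VGAT+Pitx3 plate at E16 Jun was at 124 CPM in it (95% Poisson interval 110 to 139), at 66.6 CPM (48.8 to 88.9) in the cluster led by Itga11 and Adgrv1, at 52.7 CPM (28.0 to 90.1) in that led by Met and Prdm8, and at 27.0 CPM (18.5 to 38.2) in that led by Ebf2 and Wnt7b. At P0 the order was the same, with 156 CPM (131 to 184), 116 CPM (86.7 to 152), 89.3 CPM (54.6 to 138) and 69.7 CPM (51.0 to 92.9). The 2 plates thus ranked the 4 clusters alike, and neighbours in the order had overlapping intervals except for the DA-like cluster against the next at E16. In the VGAT plates, 16 clusters had 5 or more wells at both stages, and summed Jun was higher at P0 in 14 of them, with a median log2 ratio of 1.21. It was lower in the cluster led by Pax7 and Pax3, with 8 wells at E16, and in that led by Id2 and Sgcz. In these sums the plates of a stage are pooled, so they are given without a test.

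**Figure D5:**
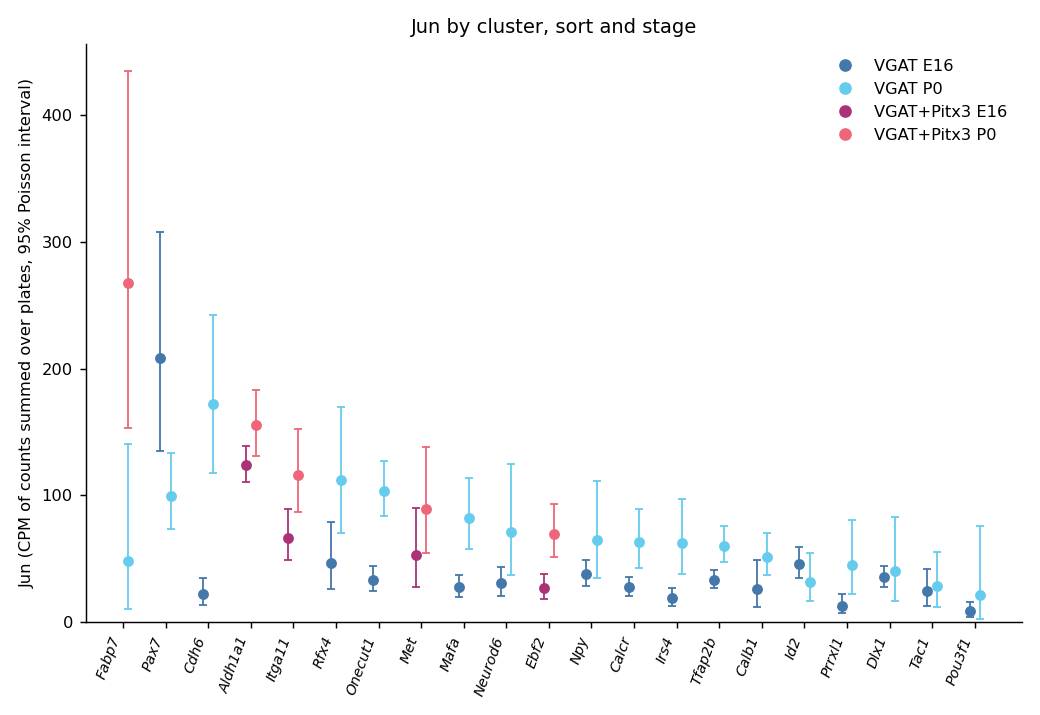
Jun (y axis, CPM of counts summed over the plates of a group, with 95% Poisson intervals for counting error) in each cluster (x axis, leading gene), for groups with 5 or more wells in it. P0 points lie above E16 points in most clusters, with the Pax7 and Id2 clusters the other way round. The Fabp7 cluster at P0 in VGAT+Pitx3 wells, at 268 CPM from 6 wells, the Pax7 cluster at E16, at 209 CPM from 8 wells, and the Cdh6 cluster at P0, at 172 CPM from 11 wells, lie above the Aldh1a1 cluster at 124 and 156 CPM.

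The genes most like the 10 across wells were sought among 12424 genes found in at least 5% of kept wells, by Pearson r with their summed level within each plate, averaged over the 9 plates (8 for Sox1). The correlations were weak. Sh2d3c was first with a mean r of 0.21 (lowest plate 0.11), followed by Gpr137c at 0.15, Dtna and Rapgef6 at 0.13, and Rgs4, Sox1, Dusp16, Dusp8, Bmp2 and Mpp2 at 0.12 to 0.13. Dusp8 and Dusp16 are phosphatases of the same family as Dusp1. None of the 10 belonged to the 4 lists. The sum is made up mostly of Jun, which gave 1741 of the counts, while Dusp1 gave 701, Npas4 479, Nr4a1 452, Egr1 229 and Fos 220. Wells share a library and the counts are sparse, so these values only describe the likeness.

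The position of a well on its plate was checked by its number. Summed over the 10 genes, wells 1 to 192 had 63.1 to 213 CPM and wells 193 to 384 had 76.4 to 229 CPM per plate, and the first set was higher on 4 of the 9 plates. For Fos the CPM of the first set was higher on 8 of the 9 plates, with few counts on several of them. Counts in the 2 sets were 4 and 0 at VGAT E16 replicate 3 and 31 and 19 at replicate 2. They were equal at VGAT E16 replicate 4 (1 and 1) and on the VGAT+Pitx3 plate at E16 (3 and 3). At VGAT P0 replicate 3 they were 3 and 1. On VGAT E16 replicate 1 the first set had 33 counts and the second 41.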

How the data were processed

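Single cells were sorted into 384-well plates and sequenced by SORT-seq, a CEL-seq2 protocol that reads the 3′ ends of transcripts with molecular barcodes. The deposited values are expected counts: per the study's methods the authors aligned reads with STAR to mouse GRCm38 (mm10) and made tables of exonic reads, intronic reads and both. How barcodes were counted is not given in the sources used here, but the values are not whole and take the steps of barcode counts corrected for molecules that share one. They are not scaled to depth and were rounded to whole numbers here. The table of exonic plus intronic counts was used unless exonic or intronic is stated, and 0 columns were without a sample. Whether the counting used the strand is not given in the sources used here.

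For each plate the counts of its kept wells were added up. The quasi-likelihood test of edgeR 4.0.16 (R 4.3.3) was applied to these sums, after filterByExpr and TMM scaling, with Benjamini-Hochberg adjustment over all genes tested and a threshold of 0.05. Stage was tested in the 7 VGAT plates, sort in 9 plates with stage in the model, and their interaction in 9 plates. The procedure was tested on simulated data. Their spread followed the trend over genes, so this does not cover genes with a spread like that of Fos, Fosb and Egr1. CPM are TMM-scaled on plates and plain in clusters. Shares of wells were taken after thinning each well to 4000 counts, with exact binomial intervals, and sums of counts have exact Poisson intervals. Wells were clustered with scanpy 1.11.5 (Leiden), and a cell type name was given to a cluster only where several markers of a list were raised in it. Alternatives were DESeq2 1.42.0, other scaling, filters, read classes and thinning, leaving out each plate, and the replicate number as a block. Those with the other plate label, with plates whose labels agree on stage, and without wells that carry glial, microglial or vascular markers were chosen after seeing the data.

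The 10 genes and the lists were chosen with earlier results of these data known. The genes named are these 10, every gene of the lists that passed a threshold, and the 10 genes most like their sum.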

Additional observations from a re-analysis of the deposited data

Results flagged for a closer look

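The 1420 wells left out of the report (1378 with under 2000 genes, 37 with over 50000 counts and 5 with a high mitochondrial share) also held these transcripts. Over those wells Fos was at 7.71 CPM, Fosb at 3.21 CPM, Jun at 56.2 CPM, Junb at 2.25 CPM and Egr1 at 9.00 CPM. In the kept wells, on the same plain scale, they were at 6.60, 2.82, 52.3, 2.01 and 6.87 CPM. Arc was at 2.89 CPM, Npas4 at 23.5 CPM, Nr4a1 at 18.0 CPM and Dusp1 at 27.0 CPM in the wells left out, and at 2.37, 14.4, 13.6 and 21.0 CPM in the kept wells. Of the 73 Npas4 counts there, 53 came from the 37 wells with over 50000 counts, where Npas4 was at 26.2 CPM and Jun at 35.6 CPM. In the wells with under 2000 genes Jun was at 93.8 CPM. Ier2 had 3 counts in the wells left out.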

How the results depend on the processing

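For stage, the number of genes past the threshold was 624 in edgeR, 944 in DESeq2, 1588 without the filter on low counts, 168 in intronic counts, 326 in thinned wells, 1 with the other plate label and 76 to 833 when single plates were left out. The log2 difference of Jun in that comparison was 1.17 (edgeR adjusted p = 0.0532) in wells under 7% mitochondrial counts, 1.15 (edgeR adjusted p = 0.0653) without wells over 2 times their plate's median, 0.16 with the other plate label, and 0.80 to 1.43 when single plates were left out, where 2 of 7 runs kept the call. For sort, the count of 1306 became 705 in intronic counts and 625 to 1397 when single plates were left out, with a Jun difference of 0.85 to 1.58 and 8 of 9 runs past the threshold, and 1.23 with the other plate label. For the interaction, 3 genes passed in DESeq2, 66 without the filter, 6 on the plates whose labels agree (where 3 of the 4 groups are 1 plate and the spread comes from 2 VGAT E16 plates), and 0 whichever plate was left out. Jun in the DA-like cluster was 133 CPM, 149 CPM at either other clustering resolution and 150.4 CPM with 30 neighbours. The share of wells with Npas4 was 3.52 percentage points lower in wells with Fos at 4000 counts per well (-3.52), but 3.38 higher at 8000 counts and 9.93 higher without thinning. The cause of these changes was not tested. The labels do not say what same-numbered plates of the 2 VGAT stages share beyond a number. Over 12909 genes the correlations of their deviations were 0.03 to 0.054, which cannot decide it for single genes. With the replicate block 226 genes passed for stage, with a Jun difference of 1.24 (edgeR adjusted p = 0.0185), and the percentiles of dispersion were 77.9 for Fos, 79.9 for Fosb and 86.6 for Egr1. Low counts limit Junb, Ier2 and Arc most.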
